A study of Mus musculus with 3 samples.

Results

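The cytosolic ribosomal protein genes are the genes for the proteins of the large (60S) and small (40S) subunits of the ribosome outside mitochondria. Members were found by name on an Agilent mouse expression array: Rpl or Rps followed by a number, or the stalk proteins Rplp0, Rplp1 and Rplp2, without S6 kinases and without names marked as pseudogenes. The rule gave 83 genes, 51 of the large and 32 of the small subunit, out of 22328 genes on the array. They were read by 185 of 55681 probes, and all 185 probe sequences were different. By its wording the rule left out ribosome components with other names, of which Rpsa, Fau, Rpl36al and the 40S-bound Rack1 are given at the end.

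RNA came from 3 primary cultures of cerebral cells, taken from C57BL6/J embryos on embryonic day 18, with no genetic alteration named. The cells grew in serum-free medium (neurobasal with the supplement B27), which favours neurons. On day 10 in vitro they received 1 mM valproate, 100 µM lamotrigine or no drug, for 24 h, and all 3 cultures contained 0.1% DMSO. Per the labels, the lamotrigine array was made for other work on antiepileptic drugs. Valproate is an antiepileptic drug that also inhibits histone deacetylases, and lamotrigine is an antiepileptic drug that blocks sodium channels. Each treatment was 1 array, so no test between treatments was possible and every difference describes these 3 arrays. No source used here gives the number of embryos behind a culture.

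The ribosome reads the messenger RNA in the small subunit and joins amino acids in the large subunit. Most of its proteins are made from single-copy genes in matched amounts, since each enters the particle as 1 copy, with the stalk proteins as the exception. Their messenger RNAs begin with a run of pyrimidines, the 5′ terminal oligopyrimidine tract, through which growth signalling by mTOR and the protein LARP1 controls their translation. In neurons, ribosomes in dendrites and axons support local protein synthesis. A few members have paralogues that are used in other tissues or conditions.

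Each array was scaled so that the 75th percentile of its non-control spots equals 100, and values on that scale are called scaled signals. At 478 for valproate, 372 for DMSO and 388 for lamotrigine, that percentile differed between arrays before scaling. A gene was taken at its brightest probe. Probes printed 10 times on an array had a technical SD of 0.062 to 0.068 log2 for a difference between 2 spots at scaled signals of 400 to 4000. All 8 neuronal markers were detected on all 3 arrays, with a summed scaled signal of 23030 on valproate, 31342 on DMSO and 27506 on lamotrigine. The 7 astrocyte markers were all detected too and summed to 16343, 34986 and 35071 in the same order. Most of these sums came from Aldoc, with 10073, 25995 and 25605. Against DMSO, 6 of 8 neuronal and 6 of 7 astrocyte markers were below 0 on valproate, with Snap25, Nefl and Gfap above. On lamotrigine 7 of 8 and 4 of 7 were below 0. The 4 proliferation markers summed to 2490, 1773 and 1702. Of the 6 microglial markers Cx3cr1 and P2ry12 were not detected, and of the 6 vascular markers Cldn5 was not. In bulk RNA like this, fewer cells of a type and less RNA per cell cannot be told apart, and the part of these marker differences in the results on ribosomal protein genes was not tested.

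Of the 83 ribosomal protein genes, 80 were detected on all 3 arrays: 48 of the large subunit and all 32 of the small. The other 3, Rpl3l, Rpl10l and Rpl39l, were detected on none. The median scaled signal of the 80 was 11379 on valproate, 12825 on DMSO and 11371 on lamotrigine, against 100 at the 75th percentile. The lowest member signals were 46.2, 45.3 and 46.8, and the highest 33853, 39077 and 35634. Probe brightness also reflects probe sequence, so these signals do not order the genes. No member spot was saturated or marked as an outlier. All 185 member probes together took 7.21% of the summed signal of non-control spots on valproate, 7.29% on DMSO and 6.90% on lamotrigine. A constant factor per array does not alter this share, but quantile normalization or another background correction can. The share was thus lowest on the lamotrigine array and nearly equal on the others.

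**Figure D1:**
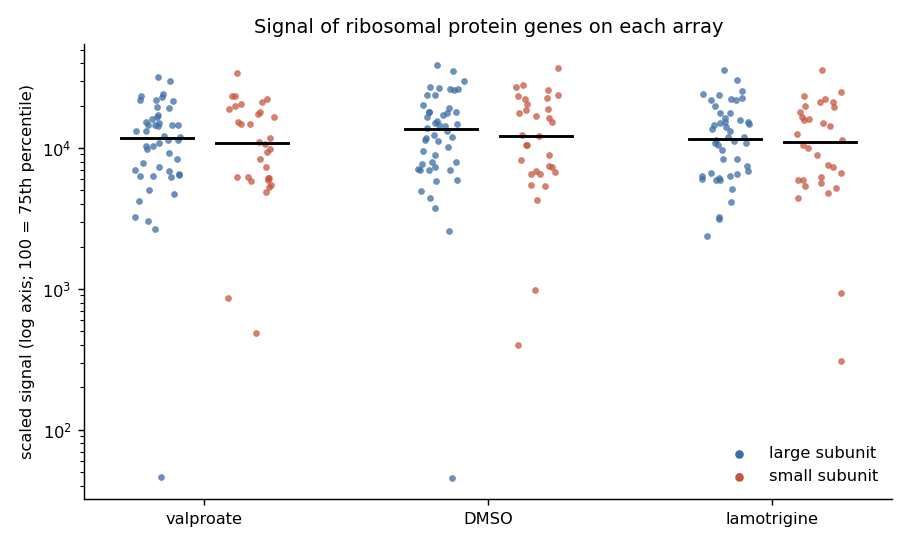
Scaled signal (log axis, 100 = 75th percentile of the array) of the 80 detected ribosomal protein genes on each array. Points are genes by subunit and bars are medians; nearly all points lie above 1000, and the lowest point of the large subunit is Rpl7l1.

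On the valproate array the ribosomal protein genes sat slightly and uniformly below DMSO at the 75th percentile scaling, a direction that turned under quantile and spike-in scaling. Their median log2 difference was -0.18, or -11.8%, with an SD of 0.13 over the 80 genes and a range of -0.56 to 0.26. Below 0 were 73 of 80 genes (91.2%), against 60.7% of the 14346 genes measured on both arrays. At least 1.2-fold lower were 22 of 80, against 25.5% of all genes. At least 1.2-fold higher were 0 of 80, against 16.3% of all genes, and no member was 2-fold apart in either direction, against 2.09% of all genes higher and 1.42% lower. The share that was 1.2-fold lower was therefore near the background, and what set the family beside all genes was its narrow spread and the lack of genes above.

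Signal level has to be matched in this comparison, since the members are bright. The median over all genes was -0.083. Over the 2597 other genes with a mean scaled signal of at least 1000 it was -0.16, with 79.2% below 0, 30.7% at least 1.2-fold lower and 3.81% at least 1.2-fold higher. The members' median lay 0.016 below that of these other bright genes, but 0.064 above it under quantile normalization, with a range of -0.037 to 0.064 over the 12 settings run. Among genes over 10000, the median was -0.18 for 47 members and -0.26 for 202 other genes. Between 4000 and 10000 it was -0.17 for 27 members and -0.20 for 422 other genes. Within these 2 bands, at the 75th percentile scaling, ribosomal protein genes on the valproate array lay slightly above other genes. Their spread was narrower: the SD was 0.13 for members, 0.24 for other bright genes and 0.42 for all genes.

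**Figure D2:**
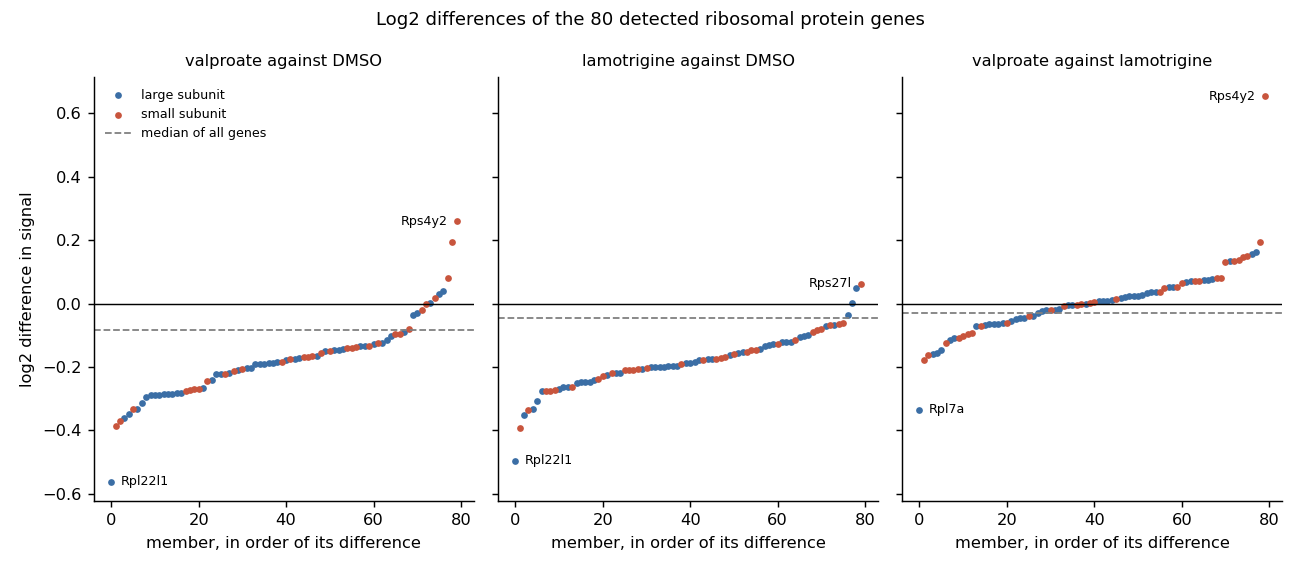
Log2 difference in signal of the 80 detected ribosomal protein genes, each panel in order of size, blue for the large and red for the small subunit, with the median of all genes dashed. Against DMSO most genes lie below 0 in both left panels (73 and 77 of 80) at the 75th percentile scaling shown, a direction that turned under spike-in scaling in both and under quantile scaling for valproate; the subunits are mixed along each curve.

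On the lamotrigine array the same genes also sat below DMSO, by about as much, at the 75th percentile scaling. This comparison shares its DMSO array with the one before, so an offset of that array would enter both. The median was -0.19 (-12.2%), with an SD of 0.091 and a range of -0.50 to 0.063, and it moved to -0.038 under quantile normalization and to 0.015 under spike-in scaling. Below 0 were 77 of 80 genes (96.2%), against 60.2% of the 14340 genes measured. At least 1.2-fold lower were 13 of 80 (16.2%), against 9.65% of all genes. Higher by that fold were 0 of 80, against 7.96% of all genes.

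Other bright genes on the lamotrigine array had a median of -0.11, with 8.97% at least 1.2-fold lower and 79.1% below 0. The members' median was 0.081 below theirs, and 65 of 80 members lay below the median of bright genes. Among genes over 10000, the median was -0.18 for members and -0.12 for other genes, and between 4000 and 10000 it was -0.20 for members and -0.13 for others. Over the 12 settings run, the members' median stayed 0.044 to 0.10 below that of other bright genes. Spike-in scaling, or centring on the median of detected probes, adds 1 constant per array and cannot change that distance. An offset this small is about the technical SD of a difference of 1 spot. It is the median of 80 genes, but these were read on the same arrays and are not replicates of a treatment. An error that the 80 genes share is not reduced by taking their median. Without a second array for each treatment the repeatability of the offset was not tested.

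**Figure D3:**
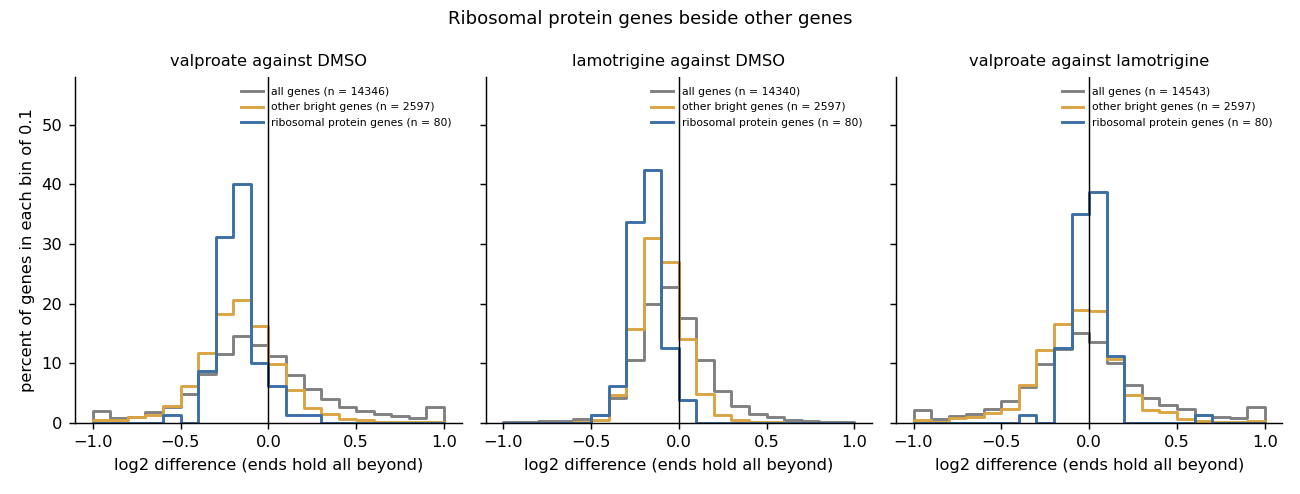
Percent of genes in each bin of 0.1 log2 for ribosomal protein genes (blue), other genes with a mean scaled signal of at least 1000 (yellow) and all genes measured (grey), at the 75th percentile scaling. The members form the narrowest curve in each panel, with SDs of 0.13, 0.091 and 0.12.

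Between the 2 drugs the ribosomal protein genes were nearly level at the 75th percentile scaling. The median of valproate against lamotrigine was 0.0032 (0.090 under quantile normalization and 0.15 under spike-in scaling), with 41 genes above 0 and 39 below (48.8%, against 54.7% of all genes), and an SD of 0.12. Only Rps4y2 was at least 1.2-fold higher (1 of 80, 1.25%, against 17.3% of all genes) and only Rpl7a at least 1.2-fold lower (1 of 80, 1.25%, against 20.7%). Other bright genes had a median of -0.053, so the members lay 0.057 above them. Above the other bright genes by 0.052 to 0.10, the members kept this side in all 12 settings, of which spike-in scaling and centring could not change it.

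The choice of scaling decides the sign against DMSO, and the plot of medians by scaling shows how. Scaling on 6 spike-in RNAs moved the median of all genes up by 0.35 for valproate against DMSO, by 0.20 for lamotrigine against DMSO and by 0.15 for valproate against lamotrigine. Relative to all genes, members remained 0.098 lower, 0.14 lower and 0.034 higher under it, as at the 75th percentile. How much spike-in RNA went into each sample is not given in the sources used here. Quantile normalization, which forces the 3 distributions to be equal, put the members' median at 0.053 for valproate against DMSO, 0.063 above all genes. For lamotrigine against DMSO it left the median at -0.038, also 0.038 below all genes. For valproate the position of the members relative to all genes therefore changed sign between settings (-0.11 to 0.063), while for lamotrigine it was below all genes in all 12 settings (-0.15 to -0.038).

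**Figure D4:**
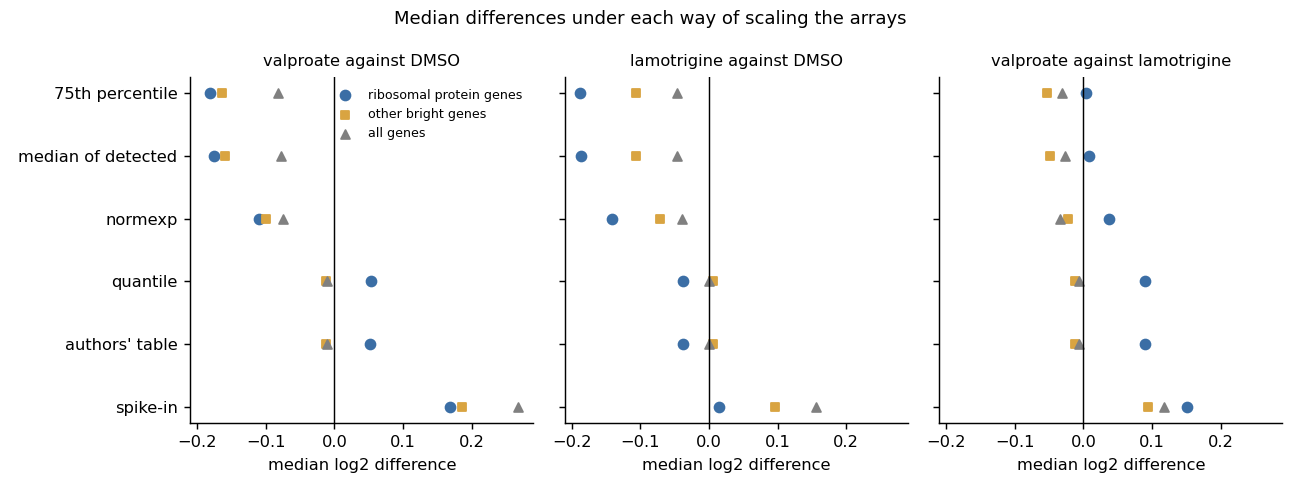
Median log2 difference of ribosomal protein genes (circles), other bright genes (squares) and all genes (triangles) under 6 ways of scaling the arrays. Valproate against DMSO runs from -0.18 at the 75th percentile to 0.17 with spike-ins, crossing 0, and lamotrigine against DMSO from -0.19 to 0.015. In the middle panel the circles lie left of the squares in every row, by a distance that centring and spike-in scaling cannot change.

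Large and small subunit genes did not separate. For valproate against DMSO the median was -0.19 over 48 large subunit genes and -0.16 over 32 small subunit genes, a difference of -0.030. For lamotrigine against DMSO the medians were -0.19 and -0.18, a difference of -0.017, and for valproate against lamotrigine -0.0024 and 0.0099, a difference of -0.012. Across all settings the large minus small difference stayed between -0.033 and -0.0015, less than the SD of the members in either subunit (0.086 to 0.15). At least 1.2-fold lower against DMSO were 15 large and 7 small subunit genes on valproate (25.5% of all genes), and 8 and 5 on lamotrigine (9.65%).

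The stalk proteins, which recruit the GTPase factors to the large subunit and include its only members present in several copies, lay close together on valproate but not on lamotrigine. The core protein Rplp0 had scaled signals of 19667 on valproate, 23923 on DMSO and 21975 on lamotrigine. For Rplp1 the values were 16529, 20146 and 17839, and for Rplp2 19345, 23743 and 20017. All 3 were highest on DMSO, with valproate differences of -0.28, -0.29 and -0.30 that became 0.067, 0.064 and 0.054 under spike-in scaling. Relative to the family median on the valproate array all 3 lay slightly lower in every setting, by 0.064 to 0.13. Their lamotrigine differences were -0.12, -0.18 and -0.25, with Rplp0 above and Rplp2 below the family median in all 10 settings that give a value per gene. Here and below, spike-in scaling, centring and keeping outlier spots could not change a gene's distance from the family median. The authors' table is itself quantile-normalized, so the settings are not independent checks. Rps6, the small subunit protein phosphorylated by the S6 kinases below mTOR, had 8367, 8260 and 7626. Its valproate difference of 0.019 lay 0.20 above the family median. Its lamotrigine difference of -0.12 lay 0.049 to 0.099 above the family median over the settings. On valproate the other probes of Rps6 read 0.035 and, for the dimmest of them, -0.20, close to the family median.

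Among the large subunit proteins with the lowest values on valproate, Rpl35, which lines the exit of the peptide tunnel, had scaled signals of 23429 on valproate, 30093 on DMSO and 25370 on lamotrigine (log2 -0.36 and -0.25 against DMSO). Rpl36 had 14272, 18159 and 15808, a valproate difference of -0.35 that became 0.0023 under spike-in scaling. At the other end stood Rpl5, which carries 5S ribosomal RNA into the particle and can bind the p53 regulator Mdm2. Its 2670, 2597 and 2386 gave a valproate difference of 0.040, 0.14 to 0.26 above the family median over the settings. Rpl35 and Rpl36 were lowest on the valproate array and Rpl5 was not. All 3 kept their side of the family median in all 10 settings that give a value per gene, several of which could not change it. Under quantile normalization, which could, the distances on valproate were -0.15, -0.18 and 0.14.

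Small subunit genes also lay on both sides of the family median on valproate, with an SD of 0.14 against 0.11 for the large subunit, a difference that was not tested. Both SDs include paralogues at the ends of the family: Rps4y2 (0.26) and Rps27l (0.195) were highest and Rpl22l1 (-0.56) lowest. Rps20, a protein of the 40S head, had 20608 on valproate, 26935 on DMSO and 23291 on lamotrigine (-0.39 and -0.21 against DMSO). Rps9 had 11742, 15191 and 12665 (-0.37 and -0.26). In the opposite position Rps10, another head protein, had 23433, 22139 and 21110 with differences of 0.082 on valproate and -0.069 on lamotrigine. A second probe of Rps10 read -0.055 and -0.19. Rps20 and Rps9 were 0.15 to 0.22 below the family median on valproate over the settings, and Rps10 0.19 to 0.32 above it.

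The lamotrigine array had its own ends. Rpl23a, at the tunnel exit where signal recognition particle docks, had 6292 on valproate, 7669 on DMSO and 6006 on lamotrigine, a lamotrigine difference of -0.35. Rps18 had 6163, 6799 and 5392 (-0.33), and Rpl30 had 6561, 7971 and 6325 (-0.33). These 3 were lowest on lamotrigine and highest on DMSO, and stayed below 0 against DMSO for lamotrigine in all 10 settings. The other probes of Rpl30 were nearer to 0, at -0.16 and -0.066, and its distance from the family median ran from -0.18 to 0.0067 over the settings. The second probes of Rpl23a and Rps18 read -0.29 and -0.19. Rpl23, on the rim that faces the small subunit, had 14663, 15607 and 15229, a lamotrigine difference of -0.035. The other probes of Rpl23 read -0.13 and -0.16 on lamotrigine, nearer to the family median of -0.19. Rps14 had 33853, 37108 and 35559 (-0.061). Between the drugs, Rps18 (0.19), Rpl5 (0.16), Rpl17 (0.16) and Rps10 (0.15) were among the 5 highest, and Rps20 (-0.18), Rplp0 (-0.16) and Rpl41 (-0.15, but 0.083 under quantile normalization) among the 5 lowest. None of these 7 reached 1.2-fold at this scaling. The place of Rpl17 depends on the probe: its probes ran from -0.25 to 0.21 between the drugs, and its value fell as low as 0.024 over the 10 settings.

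How far a single gene can be trusted is shown by genes with several probes. Of the 80 genes, 56 had at least 2 detected probes, and their probes differed by a median range of 0.10 log2 for valproate against DMSO and 0.098 for lamotrigine against DMSO. All probes of a gene were below 0 in 45 of 56 genes on valproate and 52 of 56 on lamotrigine, and all above 0 in none, at the 75th percentile scaling. The like count over all genes is not given here. At the brightest probe 60.7% and 60.2% of all genes, and 79.2% and 79.1% of other bright genes, were below 0. Over the 139 probes of 54 genes with a scaled signal of at least 1000, the SD between probes of 1 gene was 0.099 for valproate against DMSO, and the SD between gene means was 0.090. For lamotrigine against DMSO these were 0.065 and 0.062, and for valproate against lamotrigine 0.077 and 0.077. The 2 SDs are not like measures, since a gene mean averages several probes and so carries less probe variation than 1 probe. Whether genes varied beyond the variation of their probes was not tested. A further view of precision comes from a probe for Rpl23 printed 10 times: its spots lay at 500 to 559 on valproate, 507 to 540 on DMSO and 448 to 496 on lamotrigine. At the 75th percentile scaling the lamotrigine spots overlapped neither other array, by a gap of only 496 against 500 to valproate, whereas valproate and DMSO overlapped. Spots of 1 probe on 1 array are technical repeats and do not separate treatments. Spike-in scaling raises lamotrigine against DMSO by 0.20 log2, more than the difference of -0.16 for this probe.

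Probes of 1 gene disagreed by more than 0.3 log2 for a few members. For Rpl17, in the tunnel wall, 7 probes ran from -0.71 to 0.0009 for valproate against DMSO, and the lowest was a dimmer probe with 996 on valproate, 1628 on DMSO and 1182 on lamotrigine. Rps27a, made as a fusion with ubiquitin, ran from -0.71 to -0.13, where the extreme probe had signals of only 6.32, 10.4 and 11.3. Rpl21 ran from -0.20 to 0.18, Rpl26 from -0.19 to 0.12 and Rpl22 from -0.19 to 0.23. Rps3, at the messenger RNA entry, differed between probes by 0.32 for valproate against lamotrigine. Rpl7a, the 1 member at least 1.2-fold lower there, rests on a single probe of 4: that probe had 4696, 5910 and 5923 (-0.33), while its other probes ranged from -0.050 to 0.038. With normexp background correction Rpl7a stood at 0.023 in that comparison.

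Several of the members farthest from the family median were paralogues, and their probes are shown because a close copy could be read by its parent's probe. Capitals mark the longest run of bases that the probes of a pair share. Probe positions are those of the files (mm9): Rpl22 chr4:151706515-151706574, Rpl22l1 chr3:28706237-28706296, Rps27 chr9:114891509-114891568, Rps27l chr9:66795486-66797176 (a probe of 60 bases that spans an intron), Rps4x chrX:99380274-99380333 and Rps4y2 chr6:148304043-148304102.
Rpl22: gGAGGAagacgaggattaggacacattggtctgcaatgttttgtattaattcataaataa
Rpl22l1: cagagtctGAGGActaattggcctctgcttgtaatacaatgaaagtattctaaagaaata
Rps27: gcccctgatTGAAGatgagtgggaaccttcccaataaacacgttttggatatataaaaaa
Rps27l: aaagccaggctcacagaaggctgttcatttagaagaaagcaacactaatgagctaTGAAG
Rps4x: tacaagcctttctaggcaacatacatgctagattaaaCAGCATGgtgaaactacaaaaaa
Rps4y2: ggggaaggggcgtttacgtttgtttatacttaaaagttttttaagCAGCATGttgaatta
Between the probes shown, no run longer than 5 bases was shared in the first 2 pairs and no run longer than 7 in the third. Probes were compared only with each other, so whether a probe could also read the RNA of the other gene was not examined. The annotation places the Rps27 probe on chromosome 9, although RefSeq places Rps27 on chromosome 3. In all, 11 of 184 member probes were annotated on another chromosome than their gene, where a processed copy could share the signal.

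Rpl22l1, the paralogue that can replace Rpl22 in the large subunit, was the lowest member in both drug comparisons. Its scaled signal was 3012 on valproate, 4445 on DMSO and 3152 on lamotrigine, that is 1.48-fold and 1.41-fold lower than DMSO (-0.56 and -0.50). The DMSO array was the high one, and it enters both differences. It lay 0.36 to 0.46 below the family median on valproate and 0.30 to 0.33 below on lamotrigine over the 10 settings, and was below 0 in all of them. Rpl22 had 6208, 7067 and 6162 at its brightest probe (-0.19 and -0.20), close to the family median. A second Rpl22 probe had 1680, 1433 and 1518, higher than DMSO by 0.23 and 0.083, so the probes of Rpl22 point opposite ways at this scaling. Rpl22l1 was read by 1 probe.

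Rps27l, a paralogue of Rps27 known as a target of p53, was the highest member on lamotrigine and next to highest on valproate. It had 4877 on valproate, 4261 on DMSO and 4451 on lamotrigine (0.195 and 0.063 against DMSO), DMSO being the lowest array. It was above 0 against DMSO in all 10 settings, and 0.34 to 0.38 above the family median on valproate and 0.23 to 0.26 on lamotrigine. Rps27 had 15408, 18560 and 16070 (-0.27 and -0.21), and its 4 probes ranged from -0.35 to -0.26 on valproate. Paralogue minus parent was 0.46 for valproate against DMSO and 0.27 for lamotrigine against DMSO.

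Rps4y2 differed most between the drugs. The array's name belongs to an entry that RefSeq now calls Rps4l, a transcribed pseudogene, so this probe reads an RNA that is not annotated as coding. It had 483 on valproate, 403 on DMSO and 307 on lamotrigine, in that order in log2 0.26 and -0.39 against DMSO and 0.65 between the drugs, or 1.57-fold. Between the drugs it was higher on valproate by 0.64 to 0.80 in all 10 settings. Rps4x, its parent on the X chromosome, had 6246, 7290 and 6680 (-0.22 and -0.13). Rpl7l1, whose yeast relative Rlp7 acts in ribosome assembly, was the dimmest detected member, with 46.2, 45.3 and 46.8 (0.029 and 0.049), where the technical SD of a difference is 0.10 to 0.12. The 3 arrays therefore cannot be told apart for Rpl7l1. Its parent Rpl7 had 12157, 14359 and 11961 (-0.24 and -0.26).

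**Figure D5:**
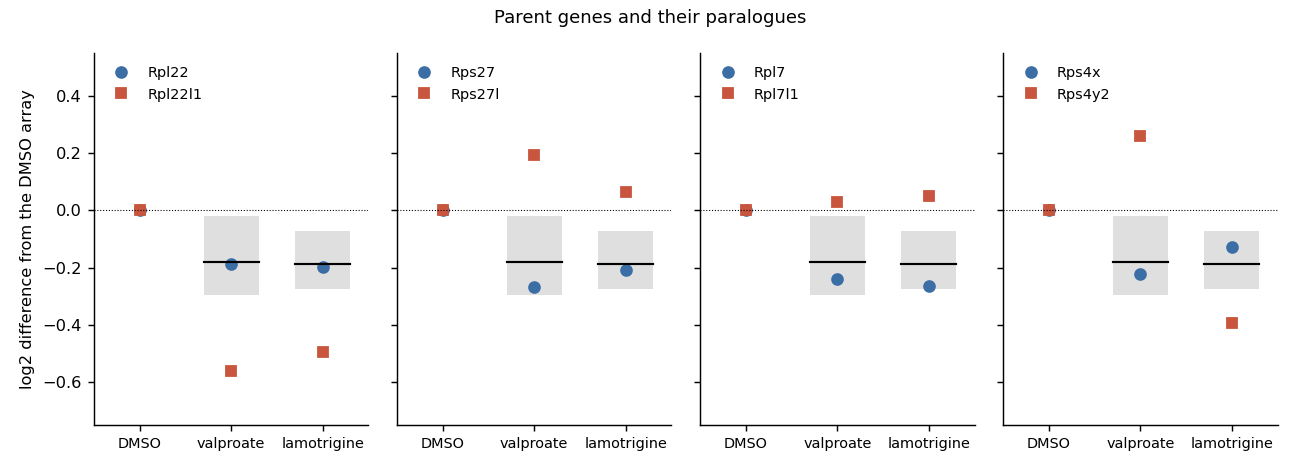
Log2 difference from the DMSO array (0 by construction) for 4 parent genes (circles) and their paralogues (squares), at the 75th percentile scaling, with the family median (line) and its 10th to 90th percentile range (grey). Spike-in scaling would raise all points and lines of an array together. At the scaling shown, the squares lie outside the grey range in every drug column and the circles inside it. For Rpl7l1 on valproate this depends on scaling: it lay 0.21 above the family median here and 0.012 below it under quantile normalization.

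Paralogues restricted to other tissues were not detected. Rpl3l, of heart and skeletal muscle, had 0.996 on valproate, 1.85 on DMSO and 1.22 on lamotrigine. Rpl10l and Rpl39l, of testis, had 0.854, 2.70 and 1.53, and 1.03, 1.43 and 1.26. None of these signals was well above background, so no fold is given. Their parents Rpl3, Rpl10 and Rpl39 differed from DMSO by -0.15, -0.17 and -0.19 on valproate at the 75th percentile scaling, and by 0.20, 0.18 and 0.16 under spike-in scaling.

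The regions around the annotated starts of members were searched for pyrimidine runs, the sequence feature the family is known for. A run there need not be a tract at the start of the messenger RNA. RefSeq start regions (GRCm38.p6) were found for 62 of the 83 members. A run of at least 8 C or T on the coding strand, from 20 bases before to 30 after the annotated start, was present in 34 of 62 members (54.8%) and in 21.5% of all 27025 genes in that table. On the other strand such a run was present in 9.68% of members and 24.7% of all genes. Shown are members with some of the longest runs in each subunit and both detected paralogues that have one, as 30 bases with the run in capitals: Rpl7a chr2:26910785-26910814 (+ strand), Rpl27a chr7:109519183-109519212 (+), Rps10 chr17:27635226-27635255 (- strand), Rps25 chr9:44407686-44407715 (+), Rpl22l1 chr3:28805501-28805530 (+) and Rps27l chr9:66946066-66946095 (+).
Rpl7a: ccccacaaTTCCCTCTTCTTTCTTTCTCCa
Rpl27a: ttcgtgagCTCCTCCCTTTTCCCTTTCTgc
Rps10: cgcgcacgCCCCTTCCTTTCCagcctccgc
Rps25: accgggctTCCTTTTTTTCCgacatcttag
Rpl22l1: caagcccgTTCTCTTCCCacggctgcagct
Rps27l: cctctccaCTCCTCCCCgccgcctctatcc
The runs are 21, 20, 13, 12, 10 and 9 bases long within the window searched. Their first bases lie at -14, -4, -3, -20, 2 and -12 relative to the annotated start. The Rps25 run starts at the edge of the window, and the c and t just before its capitals extend it. The Rps25 and Rps27l runs end before the annotated start, so they lie outside the annotated messenger RNA. Members with and without a run had the same median difference on valproate, -0.17 over 34 members and -0.17 over 25. On lamotrigine the medians were -0.19 and -0.16, and between the drugs 0.012 and -0.021. The motif CGGAAG was searched on both strands over 300 bases; read on the other strand it is CTTCCG and can overlap a pyrimidine run. It was present in 66.1% of members and 18.8% of all genes. Members with it had a median of -0.17 on valproate and those without -0.18. These matches describe letters near annotated starts and say nothing of binding.

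Other parts of the translation apparatus were described from lists of known genes, all at the 75th percentile scaling, under which the median of all genes was -0.083 on valproate and -0.046 on lamotrigine. Under spike-in scaling all 7 list medians were above 0 for valproate against DMSO, and for lamotrigine against DMSO 6 of 7, leaving only the other ribosome components below (-0.059). At least 1.2-fold lower were 25.5% of all genes on valproate and 9.65% on lamotrigine, and at least 1.2-fold higher 16.3% and 7.96%, and each list's counts are to be read against these shares. Of the ribosome components with other names, 4 of 4 were below 0 in both drug comparisons, with medians of -0.14 (0.10 under quantile normalization) and -0.26. At least 1.2-fold lower were 1 of 4 on valproate and 2 of 4 on lamotrigine (25.5% and 9.65% of all genes). Rpsa, the laminin receptor protein of the 40S subunit, had 20044 on valproate, 26871 on DMSO and 22173 on lamotrigine. The ubiquitin-like fusion Fau had 22086, 25072 and 20839, and the scaffold protein Rack1 had 19250, 20542 and 18795.

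The ribosomal proteins of mitochondria, made from other genes for another particle, also lay below 0 at this scaling, with medians of -0.14 on valproate and -0.12 on lamotrigine over 78 genes. At least 1.2-fold lower were 21 of 78 on valproate and 9 of 78 on lamotrigine, both near the shares of all genes (25.5% and 9.65%), and higher by that fold 1 and 0. Farthest from 0 on valproate were Mrpl48 (993, 1688 and 1510 in the order valproate, DMSO and lamotrigine), Mrpl54 (700, 1081 and 961) and Mrps10 (593, 895 and 706). All 3 were highest on DMSO and lowest on valproate. The SD of members was 0.13, and Mrpl48 at -0.77 lay beyond every cytosolic member.

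Elongation factors and other messenger RNAs with a pyrimidine tract had medians of -0.048 and -0.13 over 15 genes, which were above 0 (0.12 and 0.027) under quantile normalization. They divided on valproate: 7 were above 0 and 8 below, 1 at least 1.2-fold higher (16.3% of all genes) and 5 lower (25.5%). Pabpc1, the poly(A)-binding protein, had 4597 on valproate, 3338 on DMSO and 3398 on lamotrigine (0.46 and 0.026). Tpt1, a growth-related protein, had 24505, 31817 and 26473 (-0.38 and -0.27). Vim, the intermediate filament of glia and progenitors, had 5957, 7991 and 9100 (-0.42 and 0.19). Pabpc1 stood apart on the valproate array, while Tpt1 was highest on DMSO and Vim on lamotrigine.

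Initiation factors had medians of -0.19 and -0.14 over 29 of 30 genes, with 11 at least 1.2-fold lower on valproate (25.5% of all genes) and 4 on lamotrigine (9.65%) and 0 higher on either. Eif1, which guards start codon choice, had 6905 on valproate, 10077 on DMSO and 8881 on lamotrigine. The helicases Eif4a1 and Eif4a2 had 4828, 6535 and 5962, and 2719, 3681 and 3461. All 3 were lowest on valproate, at -0.55, -0.44 and -0.44 against DMSO, below most of the cytosolic members.

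Genes that make ribosomes were less uniform. Biogenesis factors had medians of -0.085 and -0.15 over 34 genes, and on valproate 3 were at least 1.2-fold higher (16.3% of all genes) and 5 lower (25.5%). Nop56, of the box C/D particle, had 1414 on valproate, 1810 on DMSO and 1555 on lamotrigine, and Pes1, needed for large subunit processing, had 575, 458 and 462. Utp15 had 22.5, 15.3 and 17.1, where the technical SD of a difference is above 0.23. RNA polymerase I, which transcribes ribosomal RNA, and its factors had medians of 0.067 (-0.027 with normexp) and -0.057 over 14 genes, with 3 at least 1.2-fold higher and 1 lower on valproate, beside the same shares of all genes. Polr1e had 160, 108 and 101, Polr1a, the largest subunit, had 339, 456 and 404, and Taf1b had 14.9, 10.8 and 13.4. Growth signalling genes had medians of -0.11 and -0.075 over 15 genes, 1 higher and 3 lower by 1.2-fold on valproate, again beside 16.3% and 25.5% of all genes. The mTOR partner Mlst8 had 471, 731 and 643, the mTORC1 inhibitor Akt1s1 had 90.2, 134 and 130, and Myc had 67.3, 89.4 and 77.4. These last 3 were each lowest on valproate, by -0.64, -0.57 and -0.41 against DMSO.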

How the data were processed

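The 3 RNA samples were each hybridised with 1 dye, Cy3, to an Agilent array. Per the file headers, the authors deposited spot intensity read with Feature Extraction 10.7.1.1, background-subtracted within an array. A second deposited table of intensity is quantile-normalized, judging by its sorted columns, which agree to 0.0312%.

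Signals were scaled to the 75th percentile, spots of 1 probe averaged on the log2 scale and outlier spots left out. A probe was detected if most spots were well above background, and a gene was represented by its brightest probe. Differences needed detection on both arrays. Probes were joined to RefSeq genes by accession (27235), symbol (3581) or older symbol (565). With 1 array per treatment there was no test. Genes past 1.2-fold were counted beside all genes. The number of arrays limits the precision.

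Named genes were the 5 highest and 5 lowest members of each comparison, stalk proteins, Rps6, paralogue pairs, members with probes over 0.3 log2 apart and the 3 genes of each list farthest from 0 on valproate. A few genes that this rule gives are not reported here. The members, lists and tests were chosen with earlier results of these data known, and the promoter runs after the values were seen. Computations used Python 3.11.15, pandas 2.3.3, R 4.3.3 and limma 3.58.1 (normexp, offset 50), and were tested on simulated data.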

Additional observations from a re-analysis of the deposited data

How the results depend on the processing

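No paired analysis was possible because each treatment was 1 array. Under quantile normalization the median for valproate against DMSO was 0.053, with 3 of 80 members at least 1.2-fold higher and 1 lower (18.8% and 19.1% of all genes), and in the deposited table of the authors it was 0.052 with 3 and 1. Spike-in scaling gave 0.17, 12 and 0 (50.6% and 5.38%), and normexp 1 higher and 5 lower (12.3% and 21.7%). Centring on detected probes gave 1 higher (16.6% of all genes). For lamotrigine against DMSO, the median was -0.038 under both quantile normalization and the authors' deposited table, each with 2 lower (7.87% of all genes under the first). Spike-in scaling gave 0.015 with 1 higher and 1 lower (28.1% and 1.69%), and normexp 6 lower (5.14%). For valproate against lamotrigine, the median was 0.15 under spike-in scaling, with 10 higher and 0 lower (30% and 11.0%). In that comparison quantile normalization and the authors' table gave 2 higher (18.9%), normexp 0 lower (17.0%), and no detection filter 4 of 83 lower (36.8%). Taking each of 179 probes on its own gave 43, 32 and 3 lower (25.1%, 9.85% and 21.2% of all probes) in the 3 comparisons and 3 higher in the last (17.4%). A threshold of 1.5-fold left 0 lower in all 3 and 2-fold also 0 higher. At 2-fold, 2.09%, 0.0976% and 2.06% of all genes were higher in the 3 comparisons, and 1.42%, 0.0628% and 1.69% lower. The shares of all genes at 1.5-fold are not given here. Under spike-in scaling, members below 0 for valproate against DMSO went from 73 to 4 of 80. Of those named and past 1.2-fold before, these turned: Rpl23a (0.064), Rpl30 (0.069), Rpl36 (0.0023), Rpl41 (0.062), Rpl7a (0.018), Rplp0 (0.067), Rplp1 (0.064), Rplp2 (0.054) and Rps27 (0.081). Under normexp Rpl7a turned to 0.023 for valproate against lamotrigine. The cause of these changes was not tested. The large minus small difference moved by less than the technical spread in every setting.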
